A study of Mus musculus with 12 samples.

Results

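The transcripts described here encode carriers of glucose and lactate, *Slc2a1* (GLUT1), *Slc2a3* (GLUT3), *Slc16a1* (MCT1) and *Slc16a3* (MCT4), together with *Bsg* (basigin), the membrane glycoprotein that escorts MCT1 and MCT4 to the cell surface. These 5 genes were chosen by name from the 49315 genes in the deposited data, with earlier results of these data known. Of the 5, 5 passed the filter on low counts that left 16637 genes for testing. The libraries came from forebrain endothelial cells of E15.5 mouse embryos, with 1 embryo per library and 4 libraries per genotype. The study asked what the intracellular tail of GPR124, an adhesion receptor that acts with RECK in WNT7 signaling, contributes to brain vessels. Wild-type embryos were compared with *Gpr124ΔC/ΔC* embryos and with *Gpr124-/-* embryos. The ΔC allele carries a V5 tag and a stop codon ahead of the intracellular tail, and the null allele is a lacZ allele. Both alleles act in every cell of the embryo, so the sorted cells developed in a mutant brain. Cells were sorted as CD31+ and negative for CD140b, CD45 and the dead-cell dye 7AAD.

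Glucose cannot cross the tight capillary wall of the brain unaided. GLUT1, which carries it through both faces of the endothelial cell, is a hallmark of the blood-brain barrier, and GLUT3 is the high-affinity carrier of neurons and platelets. MCT1 and MCT4 move lactate, pyruvate and ketone bodies together with a proton. MCT1 is the carrier of brain capillaries, prominent in early life when lactate and ketone bodies feed the brain, whereas MCT4 is known from cells that export lactate from glycolysis and is a target of the hypoxia-inducible factors. Canonical WNT signaling in brain endothelium is known to maintain GLUT1.

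Promoter sequences are shown for the 3 carriers with an entry in RefSeq's promoter set for GRCm38.p6, because *Slc16a1* and *Slc16a3* of the same family moved in opposite directions in both mutants. Each sequence runs 5′ to 3′ on the plus strand from 250 bases before to 50 bases after the RefSeq start. Capitals mark the letters ACGTG, the core of hypoxia response elements, and CTTTGT, a TCF/LEF-type core, on either strand. CTTTGA was searched as well and had no match in the 3 windows.
*Slc2a1*, GRCm38.p6 chr4:119108495-119108794, plus strand: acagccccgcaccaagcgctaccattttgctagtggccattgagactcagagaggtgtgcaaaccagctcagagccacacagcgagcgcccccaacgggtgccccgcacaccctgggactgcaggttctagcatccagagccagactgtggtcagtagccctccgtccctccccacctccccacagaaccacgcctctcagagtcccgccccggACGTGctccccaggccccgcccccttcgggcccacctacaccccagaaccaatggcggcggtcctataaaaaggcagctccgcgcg
*Slc16a1*, GRCm38.p6 chr3:104638414-104638713, plus strand: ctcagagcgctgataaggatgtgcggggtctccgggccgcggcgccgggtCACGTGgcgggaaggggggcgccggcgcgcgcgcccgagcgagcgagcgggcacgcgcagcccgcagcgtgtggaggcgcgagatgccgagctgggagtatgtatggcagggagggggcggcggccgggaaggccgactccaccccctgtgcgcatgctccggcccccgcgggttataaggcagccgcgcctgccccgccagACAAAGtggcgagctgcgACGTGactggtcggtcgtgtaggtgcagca
*Slc16a3*, GRCm38.p6 chr11:120948817-120949116, plus strand: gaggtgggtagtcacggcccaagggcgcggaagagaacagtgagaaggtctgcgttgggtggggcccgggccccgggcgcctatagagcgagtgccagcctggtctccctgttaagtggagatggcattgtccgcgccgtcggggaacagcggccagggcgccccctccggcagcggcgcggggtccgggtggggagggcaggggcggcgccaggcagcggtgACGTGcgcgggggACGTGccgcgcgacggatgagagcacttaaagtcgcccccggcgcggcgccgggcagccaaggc
ACGTG was present in all 3 windows, 1 time in that of *Slc2a1*, 2 times in that of *Slc16a3* and 3 times in that of *Slc16a1*, where 2 of the matches overlap as the palindrome CACGTG. Of 32851 mouse promoter windows of this length, 19.6% held ACGTG. The *Slc16a1* window also held CTTTGT on the minus strand, beginning at base 3 with the start counted as base 1, and 31.2% of windows held CTTTGA or CTTTGT. The windows were rich in G and C, at 65.3% for *Slc2a1*, 73.7% for *Slc16a1* and 73.3% for *Slc16a3*. A match is a description of the letters, and no binding was measured. *Slc2a3* and *Bsg* are named only.

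Library depth ran from 13877572 to 22551163 reads on genes. *Gpr124* itself, listed as *Adgra2*, was at 4.03 to 6.29 TPM (the deposited level per transcript length, which is counts over exon length scaled to a fixed total) in the 4 *Gpr124-/-* libraries, below the 28.3 to 63.5 TPM of all other libraries. The 10 endothelial markers summed to 5547 to 6914 TPM in wild type, 4934 to 7444 in *Gpr124ΔC/ΔC* and 5906 to 7028 in *Gpr124-/-*, and 3 of the 10 were higher and 2 lower in *Gpr124-/-* than in wild type. Blood cell transcripts differed between genotypes. The 8 erythroid markers summed to 7012 to 11772 TPM in wild type, 5448 to 9898 in *Gpr124ΔC/ΔC* and 17820 to 54233 in *Gpr124-/-*, and 5 of the 8 were higher in *Gpr124-/-* than in wild type by the test below. The 5 platelet markers summed to 231 to 455, 315 to 438 and 497 to 1435 TPM in the same order, and 4 of the 5 were higher in *Gpr124-/-* than in wild type. The 6 macrophage markers together reached at most 13.6 TPM in any library. The 6 pericyte markers summed to 26.9 to 64.1 TPM in wild type, 13.03 to 30.8 in *Gpr124ΔC/ΔC* and 30.5 to 38.1 in *Gpr124-/-*. In *Gpr124ΔC/ΔC* against wild type, 0 of the 6 passed the test, their log2 fold changes ran from −1.35 to −0.10 with a median of −1.12, and their part in the changes described below was not tested. The 5 neural progenitor markers summed to 101 to 128 TPM in wild type, 108.9 to 116.5 in *Gpr124ΔC/ΔC* and 134 to 164 in *Gpr124-/-*, above both. Against wild type, 0 of these 5 passed in *Gpr124-/-*. Over all libraries, the 6 neuron markers summed to 55.9 to 145 TPM and the 5 fibroblast markers to 5.505 to 57.4. The 4 choroid plexus markers summed to 32.4 to 1577 TPM, the highest in JE3. Of these lists, 1 neuron and 1 pericyte marker were higher and 1 fibroblast and 1 pericyte marker lower in *Gpr124-/-* than in wild type. Beside the marker counts, 10.5% of all tested genes were higher and 9.32% lower in *Gpr124-/-*, and 1.85% and 2.24% in *Gpr124ΔC/ΔC*. The embryo labels begin with J, K, L or M, letters whose meaning the sources used here do not give. Letter M holds 3 *Gpr124-/-* embryos and no other genotype, K holds 1 *Gpr124-/-* and 1 wild-type embryo, and J and L hold only wild-type and *Gpr124ΔC/ΔC* embryos. In bulk RNA, fewer cells of a type and less RNA per cell cannot be told apart.

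In wild-type endothelium, the 5 transcripts spanned a wide range with a fixed order. Per length of transcript, *Bsg* was highest at 7396 ± 1298 TPM (SD, n = 4), followed by *Slc2a1* at 3994 ± 353, *Slc16a1* at 40.9 ± 8.07, *Slc2a3* at 10.01 ± 2.87 and *Slc16a3* at 1.28 ± 0.127. No range over the 4 libraries overlapped that of its neighbour in this order. *Bsg* ranked 8 and *Slc2a1* ranked 13 by mean TPM among the 49315 genes. In *Gpr124-/-*, *Bsg* ranked 55 and *Slc2a1* ranked 35, and *Slc16a3* moved from rank 15480 in wild type to 7551.

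In both mutants the order at the top was inverted, because *Slc2a1* lay above *Bsg* in 4 of 4 *Gpr124ΔC/ΔC* and in 4 of 4 *Gpr124-/-* libraries, although the ranges of both genes over libraries overlapped within each mutant. *Slc2a3* lay above *Slc16a1* in 3 of 4 *Gpr124-/-* libraries and in 1 of 4 *Gpr124ΔC/ΔC* libraries. *Slc16a1* and *Slc16a3*, far apart in wild type, did not differ in level beyond their spread in *Gpr124-/-*, where *Slc16a1* was the higher in 2 of 4 libraries.

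**Figure D1:**
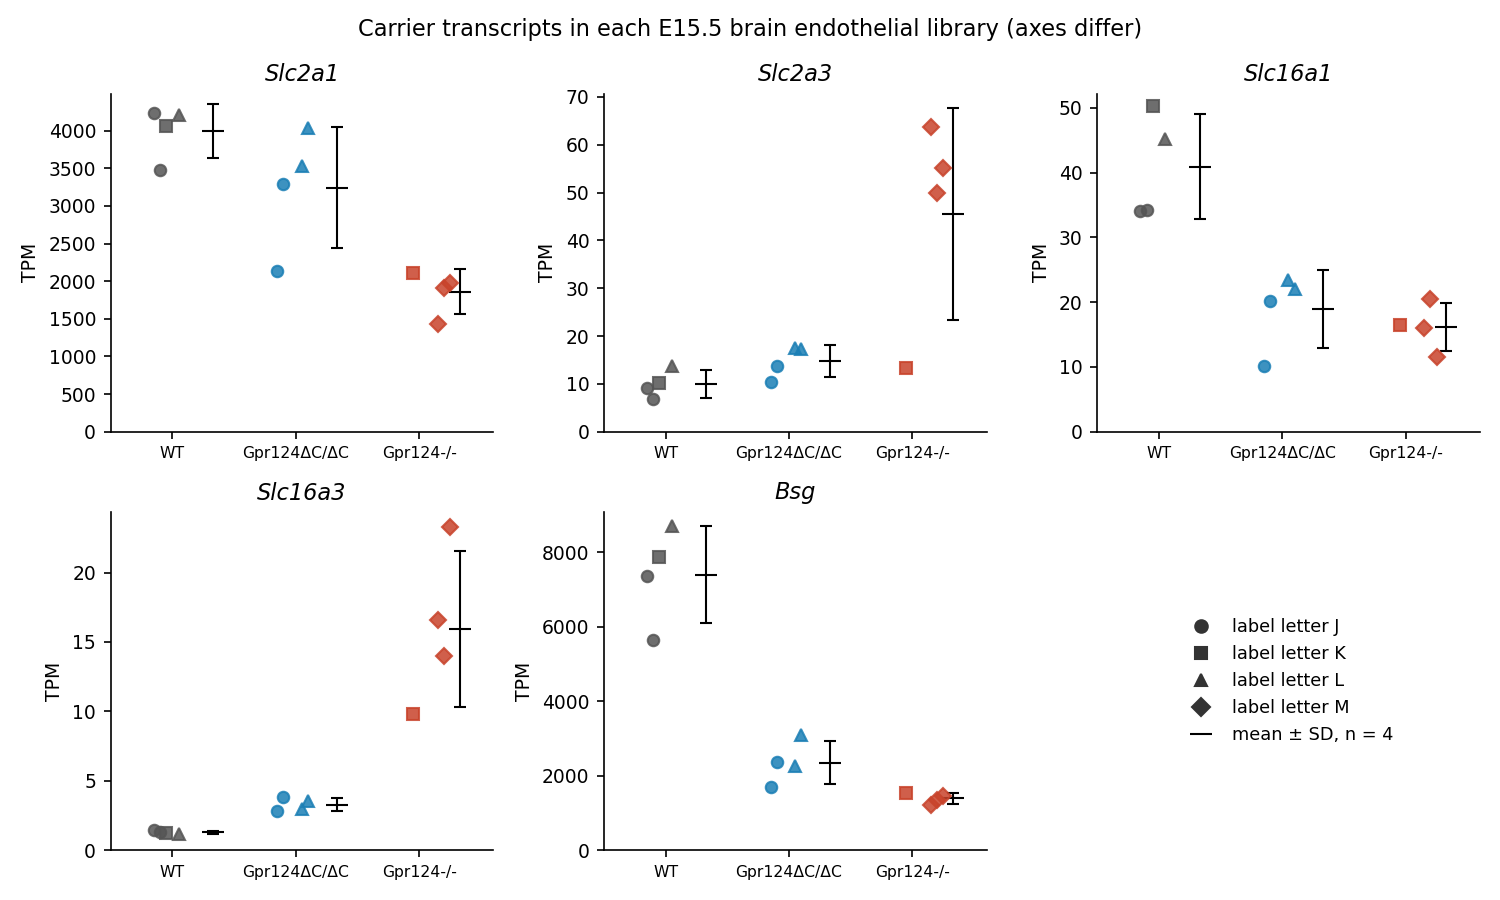
TPM of *Slc2a1*, *Slc2a3*, *Slc16a1*, *Slc16a3* and *Bsg* (vertical axes, each from 0 and on its own scale) in the 12 libraries, by genotype, with the marker shape giving the letter of the embryo label and black bars the mean ± SD of 4 embryos. *Bsg* and *Slc16a1* are lower in every mutant library than in any wild-type library, *Slc16a3* is higher, and the *Gpr124-/-* library KE4 lies apart from the 3 others for *Slc2a3*.

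Across the 5 transcripts, *Gpr124-/-* against wild type showed 3 lower (*Slc2a1*, *Slc16a1* and *Bsg*) and 2 higher (*Slc2a3* and *Slc16a3*) at an adjusted p under 0.05 in edgeR's quasi-likelihood test, and all 5 also changed more than 2-fold. With the label letter as a term, 3 of the 5 passed both limits, since the log2 change was 0.35 for *Slc2a3* (adjusted p = 0.56, edgeR) and −0.99 for *Slc2a1* (adjusted p = 0.0298, edgeR), short of 2-fold. Without the letter M embryos, 3 also passed both limits, and *Slc2a3* and *Slc16a1* did not pass the test. Over all tested genes, 10.5% were higher and 9.32% were lower at that p, and 5.67% and 4.21% were so with the 2-fold limit. The normalized counts of 4 of the 5 did not overlap between the genotypes, against 22.9% of all tested genes. In *Gpr124ΔC/ΔC* against wild type, *Slc16a1* and *Bsg* were lower and *Slc16a3* was higher, each by more than 2-fold, although with limma on log2(TPM + 1) *Slc16a3* was at 0.91 (adjusted p = 0.0402), short of 2-fold. Over all tested genes, 2.24% were lower and 1.85% were higher there, and 1.03% and 0.89% with the 2-fold limit. Normalized counts of 4 of the 5 did not overlap, against 11.3% of tested genes. Between the mutants, *Slc2a1* and *Bsg* were lower and *Slc2a3* and *Slc16a3* higher in *Gpr124-/-*, against 3.89% lower and 4.93% higher among tested genes. With the 2-fold limit, *Slc2a3* and *Slc16a3* remained as higher and no member as lower, against 2.67% and 1.94%, and 3 of the 5 did not overlap, against 13.9%. With the label letter as a term, or without the letter M embryos, none of the 5 passed the test between the mutants. With the letter as a term, and without letter M, the *Gpr124-/-* estimates rest on 1 *Gpr124-/-* embryo, KE4, because letter M holds no other genotype. The 5 genes were chosen with earlier results of these data known, so their counts beside the shares of all tested genes are a description. The comparisons of the mutants with wild type share the wild-type libraries. In each comparison, the p-values and intervals use the spread between embryos of all 3 genotypes, with 4 embryos per genotype.

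**Figure D2:**
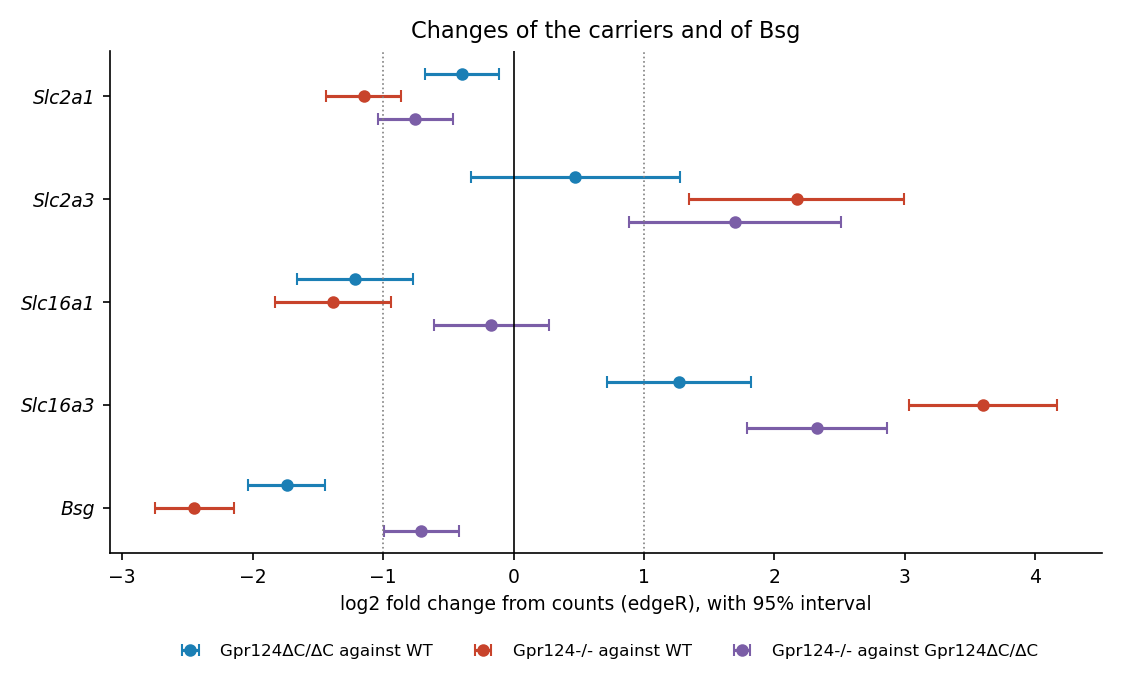
Log2 fold change from counts (horizontal axis) with its 95% interval for each gene in 3 comparisons, from edgeR. *Bsg* falls and *Slc16a3* rises in all 3, the intervals of *Slc2a3* and *Slc2a1* in *Gpr124ΔC/ΔC* lie nearer to 0 than those in *Gpr124-/-*, and the interval of *Slc16a1* between the mutants, −0.61 to 0.27, spans 0. Dotted lines mark a log2 fold change of −1 and 1.

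*Slc2a1* (ENSMUSG00000028645, chr4:119108711-119137983, plus strand, GRCm38) was at 4239, 3477, 4058 and 4202 TPM in the wild-type embryos JE1, JE6, KE8 and LE6. The *Gpr124ΔC/ΔC* embryos JE3, JE4, LE2 and LE5 had 2132, 3285, 3529 and 4028 TPM. In the *Gpr124-/-* embryos KE4, ME1, ME4 and ME5, it was at 2114, 1426, 1914 and 1970 TPM. All 4 *Gpr124-/-* libraries lay below all others, whereas 2 of the 4 *Gpr124ΔC/ΔC* libraries lay within the wild-type range of TPM, whose lowest value is that of JE6, a library with 124586 TPM of the noncoding RNA *Gm23935*. JE3, the lowest *Gpr124ΔC/ΔC* library, held 141220 TPM of it. In CPM (counts scaled to library size with TMM factors), which do not depend on length, the *Gpr124ΔC/ΔC* libraries had 2905 to 4538 and the wild-type libraries 4739 to 5249, without overlap. The log2 ratio of *Gpr124ΔC/ΔC* to wild-type CPM was −0.58 within letter J and −0.26 within letter L, and that of *Gpr124-/-* to wild type within letter K was −0.99. The 95% interval of the log2 fold change was −1.44 to −0.86 for *Gpr124-/-* (adjusted p = 5.37e-05, edgeR) and −0.68 to −0.11 for *Gpr124ΔC/ΔC* (adjusted p = 0.144, edgeR). Even the lowest *Gpr124-/-* library, at 1426 TPM, held far more *Slc2a1* than the highest held *Slc2a3*, at 63.6 TPM. The gene shares bases with *Gm12868* and *Gm12867* on the other strand and with *Mir1957a*, which had at most 273, 91 and 19 counts, against at least 26665 on *Slc2a1*.

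*Slc2a3* (ENSMUSG00000003153, chr6:122727809-122801640, minus strand) was scarce in wild type, at 9.23, 6.92, 10.1 and 13.8 TPM in JE1, JE6, KE8 and LE6. In *Gpr124ΔC/ΔC*, it was at 10.4, 13.7, 17.5 and 17.2 TPM in JE3, JE4, LE2 and LE5. The *Gpr124-/-* embryos ME1, ME4 and ME5 had 63.6, 49.9 and 55.0 TPM, while KE4 had 13.2 TPM, inside the wild-type range. Tested against wild type, *Gpr124-/-* had a log2 fold change of 2.171 (standard error 0.38, adjusted p = 0.0013, edgeR), and in *Gpr124ΔC/ΔC* it was 0.47 (95% interval −0.33 to 1.27, adjusted p = 0.685, edgeR). That interval also takes in the spread of the *Gpr124-/-* libraries. With only wild type and *Gpr124ΔC/ΔC* fitted, the change was 0.49 with a standard error of 0.17 (adjusted p = 0.197, edgeR), against 0.37 in the main fit. The rise in *Gpr124-/-* rested on the letter M embryos, since it was 0.31 without them and 0.35 with the label letter as a term. Letter M holds no other genotype, so both fits rest on KE4 and are not separate checks. Against *Gpr124ΔC/ΔC*, the log2 fold change of *Slc2a3* in *Gpr124-/-* was 1.70 (adjusted p = 0.0142, edgeR), and −0.05 with the letter as a term. With limma on log2(TPM + 1) it was 1.38 and did not pass (adjusted p = 0.064).

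The platelet marker sum and *Slc2a3* were both highest in ME1, ME4 and ME5. The 5 platelet markers summed to 1434, 1026 and 1435 TPM in ME1, ME4 and ME5 and to 497 TPM in KE4, and none of the 5 was at 0 throughout a genotype. Among wild-type embryos, LE6 had both the highest platelet sum (455 TPM, against 231 to 264 in the 3 others) and the highest *Slc2a3*. Other libraries did not follow the sum. KE4 had the highest sum outside letter M, yet its 13.2 TPM of *Slc2a3* lay below the 13.8 TPM of LE6. JE3 and LE2 had sums of 335.9 and 335.5 TPM with 10.4 and 17.5 TPM of *Slc2a3*. Over the 12 libraries, the genes with the pattern most like that of *Slc2a3* in log2 CPM, out of 9989 genes whose mean reached 8 CPM, were *Rbpms2* (Pearson r = 0.994), *Sla* (r = 0.988) and *Gp1ba* (r = 0.988). *Gp1ba* encodes a platelet surface glycoprotein that is not among the 5 markers, and its TPM was 16.7 ± 6.86 (SD, n = 4) in wild type, 23.4 ± 5.38 in *Gpr124ΔC/ΔC* and 73.2 ± 37.3 in *Gpr124-/-*. These correlations describe libraries that share genotype and letter groups. Platelets carry CD31, the antigen of the sort, and the part of platelet RNA in the *Slc2a3* values was not tested.

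**Figure D3:**
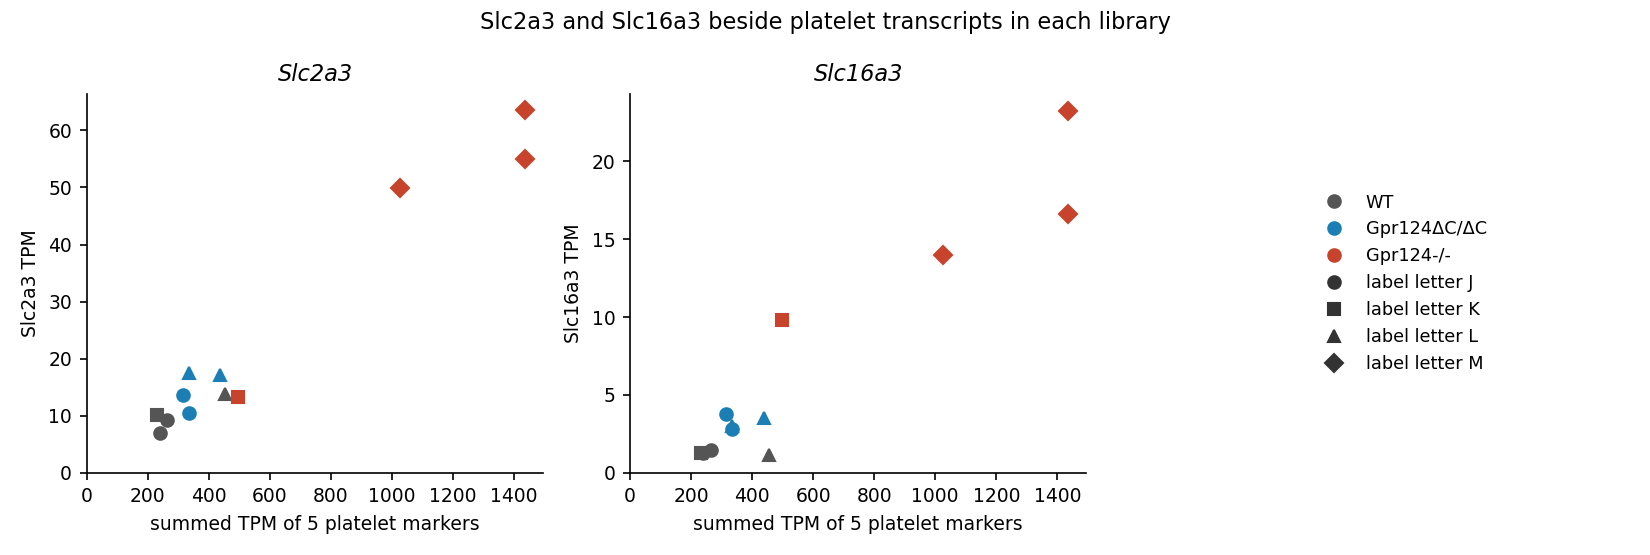
TPM of *Slc2a3* (left) and *Slc16a3* (right) against the summed TPM of 5 platelet markers (horizontal axes) in the 12 libraries, colored by genotype and shaped by the letter of the embryo label. For *Slc2a3*, the *Gpr124-/-* library KE4 (13.2 TPM) lies beside wild-type and *Gpr124ΔC/ΔC* libraries, whereas for *Slc16a3* it lies above all of them at 9.82 TPM.

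*Slc16a1* (ENSMUSG00000032902, chr3:104638668-104658462, plus strand) was lower by a similar amount in both mutants. Its TPM was 34.1, 34.2, 50.2 and 45.2 in wild-type JE1, JE6, KE8 and LE6, and 10.2, 20.1, 23.5 and 22.0 in *Gpr124ΔC/ΔC* JE3, JE4, LE2 and LE5. In *Gpr124-/-* KE4, ME1, ME4 and ME5, it was 16.5, 16.0, 20.6 and 11.5 TPM. Every mutant library lay below every wild-type library, and the mutants overlapped each other. The log2 fold change was −1.38 (standard error 0.21, adjusted p = 0.000384, edgeR) in *Gpr124-/-* and −1.21 (standard error 0.20, adjusted p = 0.00413, edgeR) in *Gpr124ΔC/ΔC*. The difference between the mutants was −0.17 with a 95% interval of −0.61 to 0.27 (adjusted p = 0.661, edgeR), so a further fall in *Gpr124-/-* of up to 0.61 on the log2 scale lies within its error. *Slc16a1* thus fell in *Gpr124ΔC/ΔC* to 46.3% of the wild-type mean TPM, where *Slc2a1* stood at 81.2%. Within letter J, the log2 ratio of *Gpr124ΔC/ΔC* to wild-type CPM was −1.26, and within letter L it was −1.10. Without the letter M embryos, the change in *Gpr124-/-* was −1.41 with an adjusted p of 0.0605 (edgeR), a comparison that leaves 1 *Gpr124-/-* library. Overlapping *Gm43581* and *Gm43585* had at most 14 and 2 counts, against at least 277 on *Slc16a1*.

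*Slc16a3* (ENSMUSG00000025161, chr11:120948480-120960868, plus strand) moved the other way. Wild-type JE1, JE6, KE8 and LE6 had 1.45, 1.29, 1.25 and 1.14 TPM, from 40 to 60 counts each. *Gpr124ΔC/ΔC* JE3, JE4, LE2 and LE5 had 2.84, 3.81, 2.98 and 3.52 TPM, and *Gpr124-/-* KE4, ME1, ME4 and ME5 had 9.82, 16.6, 14.0 and 23.3 TPM. The 3 genotypes formed a series without overlap. The log2 fold change was 3.597 (standard error 0.26, adjusted p = 1.31e-06, edgeR) in *Gpr124-/-*, 1.27 (standard error 0.25, adjusted p = 0.0115, edgeR) in *Gpr124ΔC/ΔC*, and 2.33 (standard error 0.25, adjusted p = 0.000234, edgeR) between the mutants. KE4 was the lowest of the *Gpr124-/-* embryos, and its log2 ratio to the wild-type embryo of the same letter was 2.93. In *Gpr124ΔC/ΔC*, the log2 ratio was 1.22 within letter J and 1.41 within letter L. Erythroid and platelet marker sums were higher in *Gpr124-/-* as well, and their part in this rise was not tested. In *Gpr124ΔC/ΔC*, 0 of the 8 erythroid and 0 of the 5 platelet markers passed the test, where 1.85% of all tested genes were higher and 2.24% lower. The part of blood cell transcripts in the *Gpr124ΔC/ΔC* change was not tested either. Between the mutants, the difference was 1.64 (adjusted p = 0.104, edgeR) with the letter as a term. Without JE6 and JE3, the libraries with the most *Gm23935*, the change in *Gpr124ΔC/ΔC* was 1.32 (adjusted p = 0.0592, edgeR).

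*Bsg* (ENSMUSG00000023175, chr10:79704491-79711969, plus strand) had the largest fall of the 5 in both mutants. Wild-type JE1, JE6, KE8 and LE6 had 7361, 5634, 7883 and 8705 TPM. The level was 1684, 2369, 2249 and 3086 TPM in *Gpr124ΔC/ΔC* JE3, JE4, LE2 and LE5, and 1541, 1215, 1352 and 1447 TPM in *Gpr124-/-* KE4, ME1, ME4 and ME5. The lowest wild-type library lay above the highest mutant library, and the 4 *Gpr124-/-* libraries lay below the 4 *Gpr124ΔC/ΔC* libraries. The log2 fold change was −2.45 (standard error 0.14, adjusted p = 2.5e-07, edgeR) in *Gpr124-/-* and −1.74 (standard error 0.14, adjusted p = 2.14e-05, edgeR) in *Gpr124ΔC/ΔC*. It was −1.74 within letter J, −1.81 within letter L and −2.40 within letter K. The mutants differed by −0.71 (95% interval −0.996 to −0.419, adjusted p = 0.00591, edgeR), and with the letter as a term by −0.63 (adjusted p = 0.424, edgeR). *Bsg* thus passed both limits in *Gpr124ΔC/ΔC*, where *Slc2a1* did not pass the test, although the difference between their fold changes was not tested.

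The balance between carriers of a pair shifted accordingly. *Slc16a3* made up 2.42% to 4.07% of the summed *Slc16a1* and *Slc16a3* TPM in wild type, 11.3% to 21.8% in *Gpr124ΔC/ΔC* and 37.3%, 50.9%, 40.5% and 67.0% in *Gpr124-/-* KE4, ME1, ME4 and ME5. The sum itself was 42.2 ± 7.98 TPM (SD, n = 4) in wild type, 22.2 ± 6.23 in *Gpr124ΔC/ΔC* and 32.1 ± 3.93 in *Gpr124-/-*. *Slc2a3* stayed a small part of the summed *Slc2a1* and *Slc2a3* TPM, at 0.199% to 0.328% in wild type, 0.416% to 0.494% in *Gpr124ΔC/ΔC* and 0.623% to 4.27% in *Gpr124-/-*. The ratio of *Bsg* to *Slc2a1* TPM was 1.62 to 2.07 in wild type. It was 0.637 to 0.790 in *Gpr124ΔC/ΔC* and 0.706 to 0.852 in *Gpr124-/-*, so the mutants lay apart from wild type and overlapped each other. Basigin transcripts also fell relative to their MCT partners, from 177 times the summed *Slc16a1* and *Slc16a3* TPM in wild type to 109 times in *Gpr124ΔC/ΔC* and 44.1 times in *Gpr124-/-*, as group means.

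**Figure D4:**
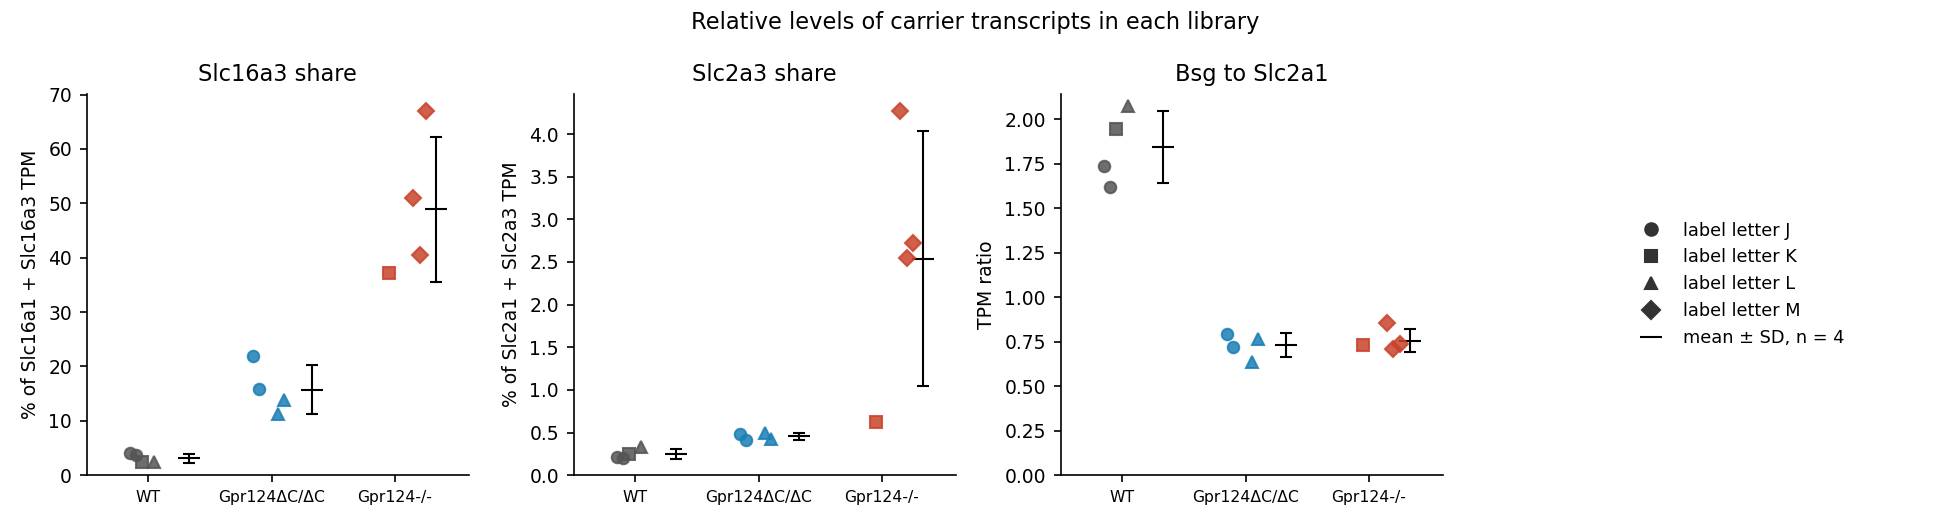
*Slc16a3* as a percentage of *Slc16a1* plus *Slc16a3* TPM, *Slc2a3* as a percentage of *Slc2a1* plus *Slc2a3* TPM, and the TPM ratio of *Bsg* to *Slc2a1* (vertical axes), for each of the 12 libraries by genotype, with the mean ± SD of 4 embryos. The share of *Slc16a3* separates the 3 genotypes, from at most 4.07% in wild type to at least 37.3% in *Gpr124-/-*, and the ratio of *Bsg* to *Slc2a1* separates wild type (1.62 or more) from both mutants (0.852 or less).

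Of the 12 listed *Slc2* genes, GLUT1 and GLUT3 included, 8 passed the low count filter. In *Gpr124-/-*, 3 were higher and 2 lower than in wild type, and the median log2 fold change was −0.25, against −0.01 over all tested genes. Of all tested genes, 10.5% were higher and 9.32% lower in *Gpr124-/-*, and 1.85% and 2.24% in *Gpr124ΔC/ΔC*. *Slc2a10*, which encodes GLUT10, was higher in both mutants, with 9.83 ± 2.04 TPM (SD, n = 4) in wild type, 20.4 ± 5.12 in *Gpr124ΔC/ΔC* (adjusted p = 0.0235, edgeR) and 24.8 ± 5.30 in *Gpr124-/-* (adjusted p = 0.00089, edgeR). *Slc2a12* fell from 5.05 ± 1.37 TPM to 1.54 ± 0.249 in *Gpr124-/-* (adjusted p = 5.11e-05, edgeR), and *Slc2a13*, the proton-coupled myo-inositol carrier, rose from 1.002 ± 0.469 to 3.23 ± 1.43 (adjusted p = 0.0272, edgeR). In *Gpr124ΔC/ΔC*, *Slc2a10* was the 1 *Slc2* gene of 8 to pass, and the list's median was −0.12, against 0.01 over all tested genes. *Slc2a8*, which encodes the intracellular carrier GLUT8, was at 21.5 ± 3.03, 20.6 ± 1.92 and 19.8 ± 1.69 TPM in wild type, *Gpr124ΔC/ΔC* and *Gpr124-/-*. *Slc2a4*, which encodes the insulin-responsive GLUT4, did not exceed a mean of 0.847 TPM in any genotype. Of the 4 listed sodium-coupled *Slc5* carriers, 1 passed the filter and 0 changed.

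Of 11 tested *Slc16* genes of 14 listed, 6 were lower and 1, *Slc16a3*, was higher in *Gpr124-/-*, with a median of −0.83. In *Gpr124ΔC/ΔC*, 4 were lower and 1 was higher, with a median of −0.37. Of all tested genes, 9.32% were lower and 10.5% higher in *Gpr124-/-*, and 2.24% and 1.85% in *Gpr124ΔC/ΔC*. *Slc16a9*, a carnitine carrier, went from 19.0 ± 3.32 TPM to 7.29 ± 2.23 in *Gpr124ΔC/ΔC* (adjusted p = 0.00139, edgeR) and 3.18 ± 0.915 in *Gpr124-/-* (adjusted p = 3.61e-06, edgeR). *Slc16a4* fell from 43.9 ± 12.04 to 10.99 ± 4.34 TPM in *Gpr124-/-* (adjusted p = 0.000249, edgeR), and its 24.3 ± 8.94 TPM in *Gpr124ΔC/ΔC* did not pass (adjusted p = 0.0879, edgeR). *Slc16a11* and *Slc16a13* also fell in *Gpr124-/-* and *Slc16a6* in *Gpr124ΔC/ΔC*. *Slc16a9* was also lower in *Gpr124-/-* than in *Gpr124ΔC/ΔC* (adjusted p = 0.00614, edgeR), with a log2 difference of −1.15.

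**Figure D5:**
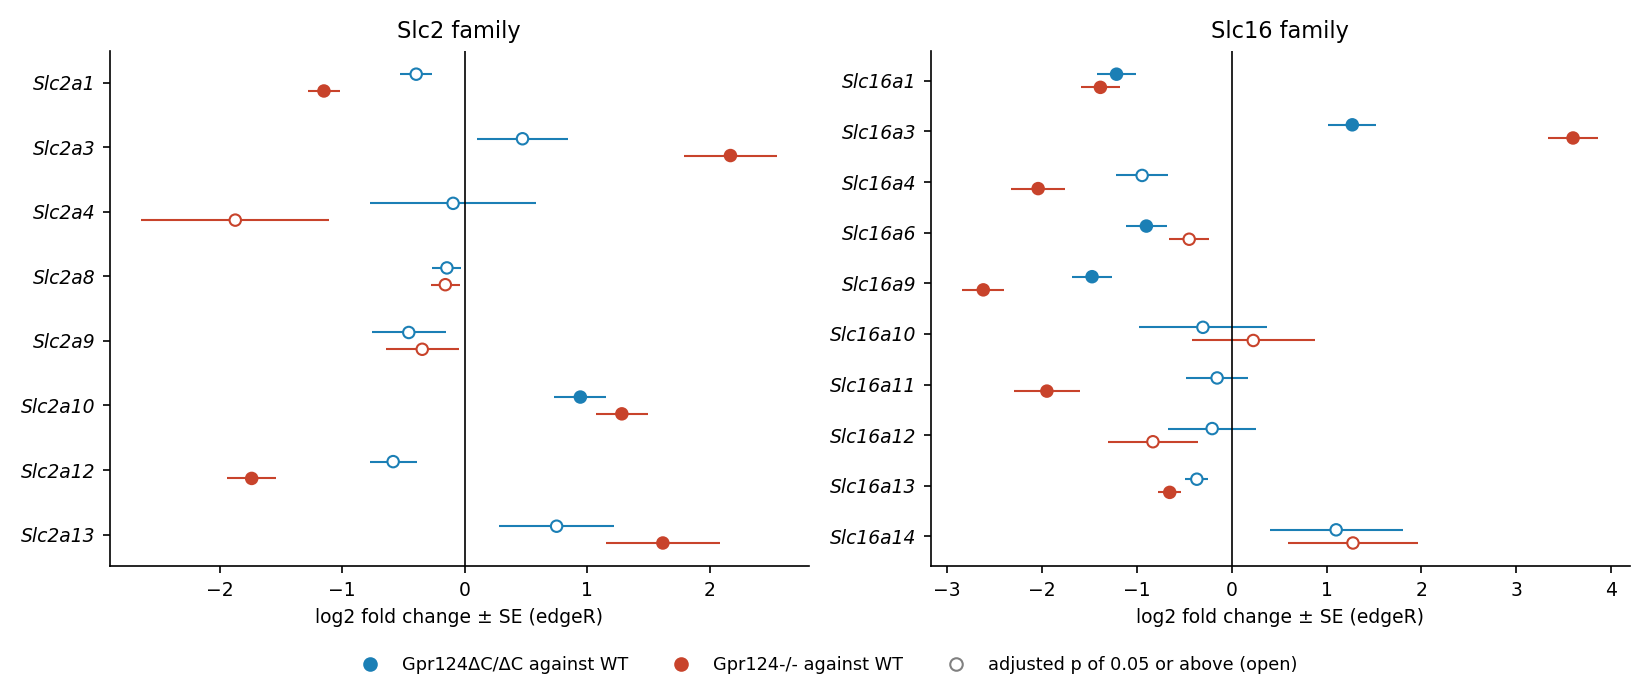
Log2 fold change ± standard error against wild type (horizontal axis, edgeR) of 8 tested *Slc2* (left) and 10 tested *Slc16* (right) genes in *Gpr124ΔC/ΔC* and *Gpr124-/-*. Filled points have an adjusted p under 0.05, and *Slc16a3*, at 3.597 in *Gpr124-/-*, is the *Slc16* gene with filled points to the right of 0.

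Of the 3 listed escort proteins, *Bsg* alone passed the test. *Emb* (embigin), an alternative escort of MCT1, was at 1.68 ± 0.299 TPM (SD, n = 4) in wild type, 2.33 ± 1.65 in *Gpr124ΔC/ΔC* and 1.66 ± 0.339 in *Gpr124-/-*. *Nptn* (neuroplastin) was at 40.3 ± 3.57, 44.2 ± 3.58 and 39.8 ± 8.94 TPM. Neither passed the test in any comparison, and their log2 fold changes in *Gpr124-/-* were −0.06 for both, with standard errors of 0.48 and 0.14. In *Gpr124-/-*, *Bsg* therefore stood at 1389 TPM beside 39.8 TPM of *Nptn*.

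Of 20 tested glycolysis genes of 21 listed, 8 were higher, 0 lower and 12 did not pass in *Gpr124-/-* against wild type, with a median log2 fold change of 0.42. In *Gpr124ΔC/ΔC*, 0 passed in either direction and the median was −0.05. Over all tested genes, 1.85% were higher and 2.24% lower in *Gpr124ΔC/ΔC*, and 10.5% and 9.32% in *Gpr124-/-*. *Aldoa* (aldolase A) rose from 396 ± 44.6 to 742 ± 115 TPM (SD, n = 4; adjusted p = 0.00019, edgeR), *Pgk1* (phosphoglycerate kinase) from 152 ± 15.9 to 253 ± 40.1 (adjusted p = 0.000764, edgeR) and *Gapdh* from 564 ± 162 to 1055 ± 118 (adjusted p = 0.0059, edgeR). *Tpi1* (triosephosphate isomerase) rose from 288 ± 24.5 to 446 ± 70.7 TPM (adjusted p = 0.00225, edgeR). The scarce *Hk2* (hexokinase 2) went from 0.151 ± 0.112 to 0.920 ± 0.462 TPM (adjusted p = 0.00731, edgeR) and *Pfkfb4* from 1.17 ± 0.469 to 3.05 ± 0.885 (adjusted p = 0.008, edgeR). At the lactate step, *Ldha*, the subunit that favors lactate formation, rose from 963 ± 123 to 1613 ± 225 TPM (adjusted p = 0.00078, edgeR), and *Ldhb*, the subunit of lactate oxidation, fell from 71.5 ± 6.78 to 39.0 ± 8.04 TPM (adjusted p = 0.000397, edgeR). *Mpc2*, a subunit of the mitochondrial pyruvate carrier, fell from 22.4 ± 3.29 to 13.9 ± 1.66 TPM (adjusted p = 0.00181, edgeR). Of 17 listed genes of lactate and pyruvate use, 3 were higher and 6 lower in *Gpr124-/-*. In *Gpr124ΔC/ΔC*, 0 were higher and 2 lower, *Pcx* (pyruvate carboxylase) and *Pdk4* (a pyruvate dehydrogenase kinase). *Pdk4* was at 18.9 ± 4.28 TPM in wild type, 7.16 ± 2.80 in *Gpr124ΔC/ΔC* (adjusted p = 0.00741, edgeR) and 2.14 ± 0.951 in *Gpr124-/-* (adjusted p = 8.85e-06, edgeR). *Pcx* went from 110 ± 21.6 to 38.1 ± 15.6 and 22.8 ± 6.50 TPM.

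Among genes that regulate these carriers, of 9 tested genes of 10 listed, 0 were higher and 2 lower in *Gpr124-/-*, and 0 passed in *Gpr124ΔC/ΔC*. Both are arrestin-like proteins known to promote internalization of GLUT1 from the surface. *Txnip* went from 333 ± 77.3 to 202 ± 41.8 TPM (SD, n = 4; adjusted p = 0.00412, edgeR) and *Arrdc4* from 25.2 ± 8.995 to 11.2 ± 2.72 (adjusted p = 0.00423, edgeR). *Hif1a* and *Epas1*, which encode the hypoxia-inducible factors, were at 84.2 ± 15.6 and 212 ± 31.7 TPM in wild type and 109 ± 28.8 and 163 ± 10.01 in *Gpr124-/-*, and neither passed. Of 15 listed hypoxia targets outside the 5 carriers, 9 were higher and 1 lower in *Gpr124-/-*, with a median log2 fold change of 0.82, and 3 of the 15 (*Pdk1*, *Pfkfb3* and *Pfkfb4*) are also in the lists above. *Egln3* rose from 5.84 ± 1.48 to 35.7 ± 6.05 TPM (adjusted p = 4.56e-06, edgeR), *Vegfa* from 2.33 ± 0.828 to 13.04 ± 4.95 (adjusted p = 0.000376, edgeR) and *Pdk1* from 10.4 ± 0.944 to 18.7 ± 2.18 (adjusted p = 0.000335, edgeR). *Ndrg1* reached 28.8 ± 3.32 TPM in *Gpr124-/-* (adjusted p = 8.27e-06, edgeR). *P4ha1* and *P4ha2*, subunits of collagen prolyl 4-hydroxylase, rose from 42.9 ± 6.79 to 75.3 ± 7.16 TPM (adjusted p = 9.2e-05, edgeR) and from 0.498 ± 0.0994 to 3.64 ± 1.30 (adjusted p = 5.85e-05, edgeR). In *Gpr124ΔC/ΔC*, *Egln3* at 13.03 ± 2.99 TPM (adjusted p = 0.0123, edgeR) and *Ndrg1* at 15.2 ± 2.37, against 9.07 ± 2.48 in wild type (adjusted p = 0.0239, edgeR), were higher and *Adm* (adrenomedullin) was lower. Beside the counts of both lists, 10.5% of all tested genes were higher and 9.32% lower in *Gpr124-/-*, and 1.85% and 2.24% in *Gpr124ΔC/ΔC*. Erythroid and platelet marker sums were higher in *Gpr124-/-* beside these lists, and their part in the changes was not tested.

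The genes whose pattern over the 12 libraries was most like that of each remaining transcript differed from gene to gene. For *Slc2a1*, they were *Slc3a2* (Pearson r = 0.986), the heavy chain of the large neutral amino acid carrier, *Tmem44* (r = 0.983) and *Cdh11* (r = 0.983). *Slc3a2* was at 2168 ± 285 TPM (SD, n = 4) in wild type, 1556 ± 425 in *Gpr124ΔC/ΔC* and 749 ± 176 in *Gpr124-/-*. For *Bsg*, they were *Csrp2* (r = 0.993), *Shld1* (r = 0.992) and *Slc25a20* (r = 0.991), the mitochondrial carnitine and acylcarnitine carrier, which went from 64.5 ± 6.41 to 46.5 ± 7.31 and 37.2 ± 2.12 TPM. *Slc16a1* had lower top values, with *Ttc39b* (r = 0.955), *Casp8* (r = 0.954) and *Acsl3* (r = 0.945), a long-chain acyl-CoA synthetase. For *Slc16a3*, they were *Endod1* (r = 0.992), *Pcbp3* (r = 0.991) and *Gpihbp1* (r = 0.990), which anchors lipoprotein lipase on capillary endothelium. *Gpihbp1* was at 22.8 ± 3.94, 46.6 ± 4.09 and 276 ± 68.4 TPM in wild type, *Gpr124ΔC/ΔC* and *Gpr124-/-*, and no 2 genotypes overlapped. These values are descriptions over 12 libraries that share genotypes.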

How the data were processed

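RNA of CD31+ forebrain endothelial cells from 12 embryos was extracted with the PicoPure kit and amplified with SMART-Seq V4 chemistry. The authors deposited raw read counts for 49315 genes and TPM per library, on mm10 (GRCm38), with bcl2fastq 2.17 in the submitters' processing notes. The aligner, counting program and strand setting are not given in the sources used here, so sense and antisense overlaps cannot be told apart. The deposited TPM values equaled those recomputed from counts and exon lengths to within 0.00498% above 1 TPM.

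Counts were fitted in R 4.3.3 with edgeR 4.0.16 (filterByExpr by genotype, TMM, glmQLFit and glmQLFTest on all 12 libraries, Benjamini-Hochberg adjustment over 16637 genes). The limits were an adjusted p under 0.05, without and with an absolute log2 fold change above 1. Fold changes are log2 from counts, and levels are TPM. Tables and plots used Python 3.11.15, pandas 2.3.3 and matplotlib 3.10.9. Alternatives were DESeq2 1.42.0, limma 3.58.1 on log2 TPM, upper-quartile scaling, other filters, 2 genotypes per fit, the label letter as a term and leaving out each library. Added after seeing the data were fits without letter M and without the 2 libraries highest in *Gm23935*. The models were also run on simulated counts with the same spread for every gene and no letter effect. That run does not cover the confounding of letter with genotype.

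The 5 genes and all lists were chosen with earlier results of these data known. Named genes were the 5, tested genes of the carrier, escort and regulator lists, for the other lists up to 6 passing genes of smallest p in each mutant against wild type, the 3 genes most alike in pattern to each of the 5, and *Adgra2*. The values of 1 tested *Slc16* gene are not reported here, and the counts over that list include it.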

Additional observations from a re-analysis of the deposited data

How the results depend on the processing

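Leaving out each of the 12 libraries in turn changed no call of the 5 genes, and the log2 fold change of *Slc2a3* in *Gpr124-/-* against wild type then lay between 1.94 and 2.48. No paired analysis was possible because embryo numbers name single embryos, and the label letters, used as a term here, are shared by some genotypes only. With the label letter as a term, 3 of the 5 passed both limits in *Gpr124-/-* against wild type, and 0 between the mutants. Without the letter M embryos, the counts were also 3 and 0, where the lone *Gpr124-/-* library is assumed to vary like the others. Between the mutants, limma on log2(TPM + 1) and on log2(TPM + 0.1) called 1 gene each, and in the edgeR test 4 passed with no fold limit. In *Gpr124ΔC/ΔC* against wild type, limma on log2(TPM + 1) called 2 in place of 3. For *Slc2a3* in *Gpr124-/-* against wild type, the fold change was 0.35 with the letter and 0.31 without letter M. Between the mutants, it turned to −0.053 and −0.16. With limma on log2(TPM + 1) and on log2(TPM + 0.1), it was 1.38 (adjusted p = 0.064) and 1.43 (adjusted p = 0.0705), no longer past the limit. The other mutant differences with the letter, then without letter M, were −0.54 and −0.62 for *Slc2a1*, 1.64 and 1.56 for *Slc16a3* and −0.63 and −0.61 for *Bsg*, none past the adjusted p. *Slc16a1* in *Gpr124-/-* against wild type was −1.41 without letter M, and *Slc16a3* in *Gpr124ΔC/ΔC* was 1.32 without the 2 libraries highest in *Gm23935*, both no longer past it. Letter and genotype are confounded in part. Letter M holds no other genotype, so with the letter as a term the *Gpr124-/-* estimates rest on KE4, as they do without letter M. The cause of the changed results was not tested. At 40 to 60 counts per wild-type library, *Slc16a3* was the transcript of the 5 with the fewest reads. The alternatives were examined for the 5 genes only. How the other listed genes change with the letter as a term or without letter M is not reported.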
